A study of Mus musculus with 8 samples.

Results

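The Iroquois homeobox genes Irx1 to Irx5 encode transcription factors, and all 5 were found by symbol among the 14608 genes of a normalized RNA-seq table. They were chosen with the differences between the groups of this experiment known, Irx4 among the genes called lower in the mutant, so the contrast of mutant and control is described for them and is not used as a test. Irx6, the remaining gene of the family, was also in the table and is shown beside them. The libraries were made from poly(A) RNA of the mouse outflow tract (OFT), the part of the embryonic heart that leads into the great arteries, at embryonic day 11.5. Control stands for 4 libraries with the genotype label Control, and mutant for 4 libraries labelled Mib1V943F/+ Gata6STOP/+. The mutant embryos are heterozygous for both alleles: Mib1V943F is a missense change in the ubiquitin ligase that activates NOTCH ligands, and Gata6STOP is a null allele of a cardiac GATA factor, the 2 alleles lying in trans. The sample titles call the control libraries WT. Neither genotype label gives a strain or spells out what alleles the Control embryos carried. Each library is a pool, of 3 individuals by the series labels, a number that differs in the methods of the study, and it is not stated whether pools came from separate litters, so errors measure only the spread between these pools.

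Iroquois factors belong to the TALE class of homeodomain proteins, in which the homeodomain is longer than usual, and they often act as repressors. In the heart, Irx4 is restricted to ventricular myocardium and maintains ventricular identity, Irx3 promotes conduction in the His-Purkinje system, and Irx5 sets the repolarization gradient across the ventricular wall by repressing Kcnd2. Irx3 and Irx5 act redundantly in the endocardium and are needed together for the atrioventricular canal and the OFT, while Irx1 and Irx2 are known from the ventricular septum and from many tissues outside the heart.

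The family lies in a pair of clusters in the genome build GRCm38, with the gene models of GENCODE release M21. On chromosome 13, Irx1 (ENSMUSG00000060969) spans chr13:71957921-71963723 on the minus strand. Irx2 (ENSMUSG00000001504) follows at chr13:72628820-72634198 and Irx4 (ENSMUSG00000021604) at chr13:73260479-73269608, both on the plus strand. This cluster extends over 1311688 bp, with 665096 bp between Irx1 and Irx2 and 626280 bp between Irx2 and Irx4. On chromosome 8, Irx3 (ENSMUSG00000031734) spans chr8:91798525-91802067 on the minus strand, Irx5 (ENSMUSG00000031737) chr8:92357625-92376286 and Irx6 (ENSMUSG00000031738) chr8:92674288-92680956, both on the plus strand. The second cluster extends over 882432 bp, with 555557 bp between Irx3 and Irx5 and 298001 bp between Irx5 and Irx6.

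The homeobox defines the family. A stretch that starts in it and runs past its end is shown, to set the genes side by side. Over its 60 bases Irx4 differs from the other genes at 9 (Irx3, Irx5 and Irx6) to 13 positions (Irx1). The 60 bases below start at the codon of the invariant tryptophan of the third helix, the helix that contacts DNA, and were copied from the GENCODE transcripts, 5′ to 3′ on the coding strand. They lie at chr13:71959974-71960033 (Irx1, minus strand, exon 2 of 4), chr13:72630811-72630870 (Irx2, plus strand, exon 2 of 5), chr13:73267670-73267729 (Irx4, plus strand, exon 5 of 6), chr8:91800478-91800537 (Irx3, minus strand, exon 2 of 4), chr8:92359774-92359833 (Irx5, plus strand, exon 2 of 5) and chr8:92677383-92677442 (Irx6, plus strand, exon 4 of 6). Capitals mark the 18 positions at which the 6 genes are not all equal, most of them in the part past the end of the homeobox.
Irx1: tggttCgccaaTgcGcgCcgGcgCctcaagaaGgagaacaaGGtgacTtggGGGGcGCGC
Irx2: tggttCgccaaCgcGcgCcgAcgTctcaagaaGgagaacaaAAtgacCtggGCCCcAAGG
Irx4: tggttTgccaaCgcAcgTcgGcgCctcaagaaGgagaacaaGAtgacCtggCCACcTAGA
Irx3: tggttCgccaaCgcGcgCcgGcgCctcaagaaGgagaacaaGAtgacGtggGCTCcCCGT
Irx5: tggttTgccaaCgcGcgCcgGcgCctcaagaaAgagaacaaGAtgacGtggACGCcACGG
Irx6: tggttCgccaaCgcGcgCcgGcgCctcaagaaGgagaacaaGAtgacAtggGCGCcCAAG
Over the 189 bases of the homeobox, identity ran from 83.1% to 91.0% among the 15 pairs of genes, and Irx2 and Irx5, which lie in different clusters, were the most alike. Runs of 60 bases that 2 genes hold in common were present in Irx3 and Irx6 (29 runs) and in Irx2 and Irx5 (6 runs), and in none of the other 13 pairs. On the opposite strand, Irx3 shared 65 such runs (2.35% of its own) with the antisense gene Irx3os, and Irx6 shared 70 (2.08%) with the antisense gene Gm45505. The library kit kept strand, but the strand setting of the counting is not given in the sources used here, so reads of the overlapping antisense genes may be part of the Irx3 and Irx6 values.

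The deposited values are read counts scaled to library size (CPM), from which whole reads could be recovered. Control 2 was the shallowest library with 10669420 reads on listed genes, and the others held 21064242 to 30469165, so that 1 read was worth 0.0325 to 0.0948 CPM. Gata6 ran from 236 to 279 CPM in control and from 213 to 284 CPM in mutant, and Mib1 from 107 to 138 CPM and from 123 to 137 CPM, and in both genes the groups overlapped. The log2 fold changes were -0.08 (SE 0.10) for Gata6 and 0.07 (SE 0.09) for Mib1. Mib1V943F is a missense change, so the Mib1 level does not check the label. The study reports, from quantitative PCR, Gata6 mRNA reduced to the level it predicted for these mutants, a measurement that was not analysed here. The Gata6 values of these libraries, with a log2 fold change of -0.08 and overlapping groups, did not show such a reduction. The reason for this difference was not tested. Across all genes, 0 of 14608 passed an adjusted p under 0.05 in limma (0%), and 1763 had an unadjusted p under 0.05 (12.1%). On the recovered reads, edgeR's likelihood ratio test called 107 genes (0.732%), 81 of them lower (0.554%) and 26 higher in the mutant (0.178%). The number called was 51 without control 1, 46 without control 2, 24 without control 3, 209 without control 4 and 38 without mutant 3. DESeq2 called 192 genes, 146 of the 13188 with an adjusted p being lower (1.11%), and the quasi-likelihood test of edgeR called 0.

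Irx4, the ventricular identity gene, was lower in all 4 mutant libraries than in all 4 control libraries. Irx4 was at 49.9, 52.1, 47.6 and 37.7 CPM in control 1 to 4 and at 33.6, 21.8, 26.5 and 28.6 CPM in mutant 1 to 4. Control 4 was the lowest control and mutant 1 the highest mutant, and the groups did not overlap. The means were 46.8 ± 6.33 CPM (SD, n = 4) and 27.6 ± 4.91 CPM (SD, n = 4), a log2 fold change of -0.76 on the log2(CPM + 0.5) scale (SE 0.13). Leaving out any 1 library kept the log2 fold change between -0.86 and -0.65. These values rest on 549 to 1386 reads per library, for which counting alone gives a coefficient of variation of at most 4.27%, against 13.5% observed in control and 17.8% in mutant.

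Irx3, the conduction gene of the chromosome 8 cluster, was also lower in each mutant library than in each control library. Its values were 18.4, 14.7, 15.3 and 13.1 CPM in control 1 to 4 and 12.2, 5.89, 9.36 and 10.4 CPM in mutant 1 to 4. The groups did not overlap, but the gap between control 4 and mutant 1 was small, 13.1 against 12.2 CPM. The means were 15.4 ± 2.22 and 9.45 ± 2.65 CPM (SD, n = 4 each), with a log2 fold change of -0.71 (SE 0.19). Leaving out 1 library moved it between -0.84 and -0.51. Irx3 had 155 to 510 reads per library, so counting gives a coefficient of variation of at most 8.03%, beside 14.4% observed in control and 28.0% in mutant.

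Irx5, the neighbour of Irx3, showed the lowest ratio of mutant to control means among the 5 genes, 0.509, with a wide spread. Irx5 was at 12.6, 12.3, 12.6 and 7.17 CPM in control 1 to 4 and at 7.84, 3.50, 3.316 and 8.11 CPM in mutant 1 to 4. Here control 4 lay below mutant 1 and mutant 4, so the groups overlapped, and mutant 2 and mutant 3 were far below the rest. The means were 11.2 ± 2.68 and 5.69 ± 2.64 CPM (SD, n = 4 each), with a log2 fold change of -0.99 (SE 0.28). Leaving out 1 library moved it between -1.18 and -0.79. With 95 to 350 reads, counting accounts for a coefficient of variation of at most 10.3% in Irx5, beside 24.0% in control and 46.4% in mutant.

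Irx1 and Irx2 differed from the other members in that 1 mutant library was far above all others. Irx1 was at 5.48, 2.28, 4.88 and 4.51 CPM in control 1 to 4 and at 38.5, 1.84, 3.64 and 3.24 CPM in mutant 1 to 4. Mutant 1 was 7.03 times the next highest library, and the other mutant libraries lay within or just below the control range. The means were 4.29 ± 1.40 and 11.8 ± 17.8 CPM (SD, n = 4 each), and the log2 fold change of 0.41 (SE 0.67) became -0.48 without mutant 1. On the recovered reads it was 1.46 in the likelihood ratio test, 1.39 in the quasi-likelihood test and 1.46 in DESeq2, which gave Irx1 no adjusted p. The counts behind Irx1 ran from 24 reads in control 2 to 825 reads in mutant 1, and at 24 reads counting alone gives a coefficient of variation of 20.4%. Irx2 was at 7.997, 5.22, 6.58 and 6.24 CPM in control 1 to 4 and at 27.0, 1.58, 3.09 and 6.55 CPM in mutant 1 to 4. Mutant 1 was 3.38 times the next highest library, mutant 4 lay within the control range, and mutant 2 and mutant 3 lay below it. The means were 6.51 ± 1.15 and 9.56 ± 11.8 CPM (SD, n = 4 each), with a log2 fold change of -0.17 (SE 0.58). It was -0.89 without mutant 1, 0.35 without mutant 2 and 0.09 without mutant 3, so the direction for Irx2 hung on single libraries, and it was 0.55 in the likelihood ratio test. With mutant 1 set aside, the mutant mean of Irx1 was 2.91 ± 0.95 CPM (SD, n = 3), 0.678 times the control mean. That of Irx2 was 3.74 ± 2.55 CPM (SD, n = 3), 0.575 times the control mean. All 5 members then had a mutant mean below the control mean. Since mutant 1 was set aside for its high values of Irx1 and Irx2, this lowers their mutant means by itself and is no separate result.

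**Figure D1:**
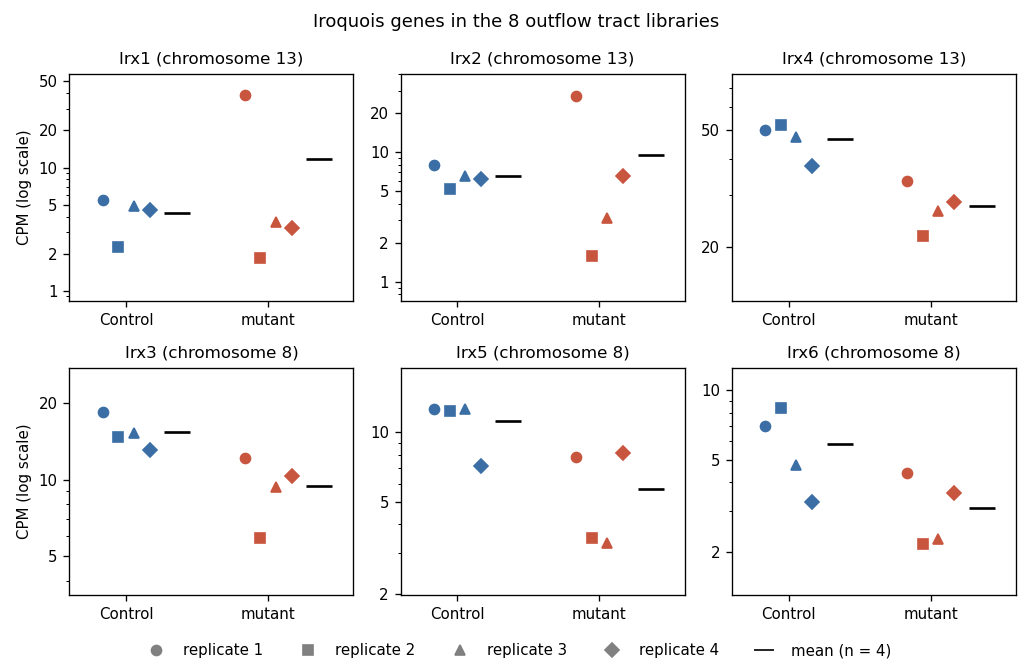
CPM on a log scale of each Iroquois gene in each library, with 1 symbol per replicate number, Control in blue, mutant in red and a black dash at the mean of the 4 libraries. Mutant values of Irx4 and Irx3 lie below the control values, those of Irx5 and Irx6 overlap, and mutant replicate 1 stands alone at 38.5 CPM for Irx1 and 27.0 CPM for Irx2.

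Irx6 was at 6.99, 8.35, 4.76 and 3.28 CPM in control 1 to 4 and at 4.39, 2.17, 2.28 and 3.58 CPM in mutant 1 to 4. Its log2 fold change was -0.79 (SE 0.27), and the groups overlapped through control 4. Across the family, mutant 2 was the lowest of all 8 libraries for 5 of the 6 genes, all but Irx5, which was lowest in mutant 3. Control 4 was the lowest control library for 4 of the 6 genes, Irx3, Irx4, Irx5 and Irx6, and mutant 1 was the highest mutant library for 5 of the 6, all but Irx5. Thus 2 of the 5 members, Irx3 and Irx4, had groups that did not overlap, lower in the mutant, beside 569 of all genes (3.9%). The likelihood ratio test called 1 of the 5 members lower, Irx4, beside 0.554% of all genes. DESeq2, which gave Irx1 no adjusted p, called 3, Irx3, Irx4 and Irx5, beside 1.11% of genes with an adjusted p. Without control 4 or without mutant 1 the likelihood ratio test called Irx3, Irx4 and Irx5, 3 members, and without mutant 4 it called Irx4 and Irx5. Since the members were chosen on this contrast, these counts are given as a description.

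**Figure D2:**
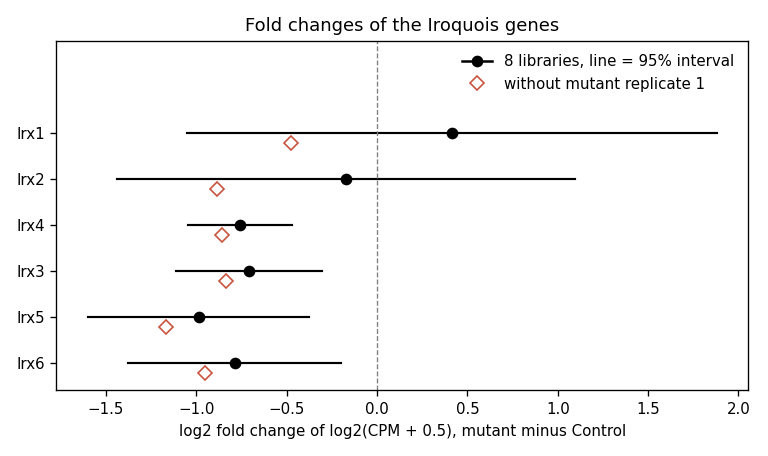
Log2 fold change, mutant minus Control, of each Iroquois gene from the limma fit (black point, with its 95% interval as a line) and the same without mutant replicate 1 (open diamond). Irx3, Irx4, Irx5 and Irx6 lie between -0.99 and -0.71, while Irx1 moves from 0.41 to -0.48 and Irx2 from -0.17 to -0.89 when that library is left out.

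Irx1 and Irx2 were among the few genes for which mutant 1 stood far above the other libraries. Of all 14608 genes, 10 were more than 1 unit of log2(CPM + 0.5) above the next highest library in mutant 1, and Irx1 ranked first with 2.71 units. Irx2 ranked 4 with 1.70 units. The genes between them, named after their values were seen, were Gli1, a transcription factor and target of hedgehog signalling, and Six2, a homeobox gene of head and kidney mesenchyme. Six2 is also among the markers of the second heart field and pharyngeal mesoderm used below. Gli1 was at 27.2 CPM in mutant 1 against 2.21 to 4.09 CPM elsewhere. Six2 was at 17.7 CPM in mutant 1 against 1.14 to 2.94 CPM elsewhere. Irx4, the third gene of the chromosome 13 cluster, was not part of this pattern, being lower in mutant 1 than in any control library. What sets this library apart for these genes was not tested.

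**Figure D3:**
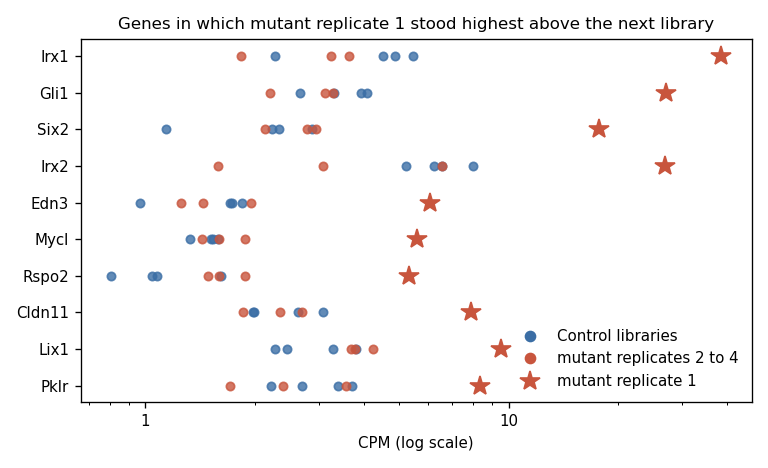
CPM on a log scale of the 10 genes for which mutant replicate 1 (star) lay highest above the next library, with the Control libraries in blue and mutant replicates 2 to 4 in red. Irx1 at 38.5 CPM and Irx2 at 27.0 CPM rank 1 and 4, and the stars lie apart from the 7 other libraries, which scatter together.

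Levels of different genes were set side by side only per length, as CPM per kb of the longest annotated transcript. In control libraries Irx4 was at 18.1 ± 2.45 CPM per kb (SD, n = 4), above Irx3 at 5.59 ± 0.81, Irx5 at 4.39 ± 1.05, Irx2 at 2.48 ± 0.44, Irx1 at 1.81 ± 0.59 and Irx6 at 1.73 ± 0.67. The Irx4 range of 14.6 to 20.1 CPM per kb was clear of the Irx3 range of 4.75 to 6.69. Below Irx4, each pair of neighbours in this order overlapped. Irx3 nevertheless lay clear of Irx2 (1.99 to 3.05), Irx1 (0.96 to 2.31) and Irx6 (0.97 to 2.48), and the lowest Irx5 value, 2.81, lay above the highest of Irx1 and Irx6. With the mean length over all annotated transcripts, which include short ones, Irx2 came to 6.41 CPM per kb and Irx1 to 3.48, and Irx2 then lay above Irx3 at 5.74, with overlapping ranges. In mutant libraries Irx4 was at 10.7 ± 1.90 CPM per kb, still the highest on average, but Irx1 reached 16.2 CPM per kb in mutant 1.

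After centring each gene on its group means, several genes of the family still varied together over the 8 libraries. Depth and tissue composition of a library act on all its genes, and the correlations are a description. Among the 15 pairs Pearson r ran from 0.37 (Irx1 and Irx6) to 0.93 (Irx1 and Irx2), and without mutant 1 from -0.25 to 0.87. For r of Irx4 with all 11650 other genes averaging 5 CPM or more, the median was 0.00 and the 5th and 95th percentiles were -0.79 and 0.79. Irx4 went with Irx6 (Pearson r = 0.90, n = 8), with Irx3 (r = 0.87) and with Irx5 (r = 0.83). For Irx1 and Irx2 r was 0.93, but 0.63 without mutant 1. For Irx2 and Irx3, which lie in different clusters, r was 0.83 and remained 0.86 without mutant 1. For Irx1 and Irx4, which share a cluster, it was 0.60 with mutant 1 and 0.10 without.

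Among genes that averaged 5 CPM or more, those most like each Iroquois gene were ranked by the same r over 8 libraries. They are the highest of 11650 values of r for each member. With so many genes and few libraries, values this high can be met by picking alone, so the ranks are a description. For Irx4 they were Nle1, a ribosome assembly factor (r = 0.992), Cstf1, of the polyadenylation machinery (0.982), Pcx, pyruvate carboxylase (0.977), Plvap, an endothelial diaphragm protein (0.972), and Fbxl22, an F-box protein of muscle (0.969). Plvap was at 106.6, 110.9, 96.0 and 71.4 CPM in control 1 to 4 and at 88.1, 47.1, 72.2 and 78.4 CPM in mutant 1 to 4, with control 4 and mutant 2 the lowest of their groups, as for Irx4. For Irx5 the first was Cited1, a transcriptional co-regulator (r = 0.995, and 0.997 without mutant 1), followed by Fam53c (0.983) and Hopx, a homeodomain-only cofactor of cardiac progenitors (0.974). Cited1 was at 175.8, 160.3, 172.2 and 86.5 CPM in control 1 to 4 and at 106.1, 32.7, 29.6 and 100.6 CPM in mutant 1 to 4. As for Irx5, control 4 lay below mutant 1 and mutant 4, and mutant 2 and mutant 3 were far below the rest.

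For Irx3 the most similar genes were Mrpl9 (r = 0.989), Rhobtb2 (0.989) and Ccnk (0.988), all lowest in mutant 2. For Irx2 they were Rtn4ip1 (r = 0.978), Snapc5 (0.972) and Nr2f2, a nuclear receptor of atria and veins (0.966). For Irx1 they were Ahsa1 (r = 0.976), Ptch1, the hedgehog receptor (0.970), and Ccne1, cyclin E1 (0.967). The likeness to Irx1 leaned on mutant 1, where Ptch1 was at 73.7 CPM against 41.5 to 46.6 CPM elsewhere. Without this library r was 0.66 for Ptch1, 0.79 for Ahsa1 and 0.67 for Ccne1.

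The promoters of Irx2 and Irx4, which lie in 1 cluster, are shown. Whether motifs in them go with the values of any library was not tested. RefSeq promoter sequences of build GRCm38.p6 were matched by symbol for 3 of the 6 genes, Irx2, Irx3 and Irx4, and the 250 bases before the RefSeq start were searched on both strands. The motifs were the GATA core GATAA, the RBPJ core TGGGAA of the DNA-binding partner of NOTCH, and the E-box CANNTG. The sequences run 5′ to 3′ on the coding strand, from chr13:72628570-72628819 for Irx2 (plus strand) and from chr13:73260247-73260478 for Irx4 (plus strand, 232 bases, since GENCODE starts the gene 18 bases earlier than RefSeq). Capitals mark a match to the RBPJ core, read here on the opposite strand.
Irx2: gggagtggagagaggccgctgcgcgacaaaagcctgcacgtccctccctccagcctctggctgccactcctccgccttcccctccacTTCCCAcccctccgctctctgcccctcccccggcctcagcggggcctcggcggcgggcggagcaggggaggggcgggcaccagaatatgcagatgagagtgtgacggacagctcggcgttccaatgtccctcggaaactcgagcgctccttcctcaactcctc
Irx4: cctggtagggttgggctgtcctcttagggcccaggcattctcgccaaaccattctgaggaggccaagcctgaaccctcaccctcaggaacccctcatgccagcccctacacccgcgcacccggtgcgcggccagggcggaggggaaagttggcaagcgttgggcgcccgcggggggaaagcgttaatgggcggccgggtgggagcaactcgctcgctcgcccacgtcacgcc
Irx2 held 1 RBPJ core, starting 163 bases before the start, and 1 E-box, while Irx4 held none of the 3 motifs. Irx3, whose window lies inside the GENCODE gene and is not printed, held 1 RBPJ core. None of the 3 windows held GATAA. Of 32851 promoter windows of the same length, 21.6% held the RBPJ core, 22.6% the GATA core and 66.2% an E-box. GC content was 68.8% in Irx4, 68.4% in Irx2 and 56% in Irx3, against a median of 52.4%, with 22, 19 and 13 CpG dinucleotides against a median of 6.

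Genes that flank the Iroquois clusters passed the unadjusted threshold about as often as all genes did. Of 54 tested genes within 2 Mb of either cluster, 0 passed in limma, 3 were higher and 4 lower at an unadjusted p under 0.05 (beside 5.45% and 6.62% of all genes), the likelihood ratio test called 0 and DESeq2 1 (Sdha, of respiratory complex II), and their median log2 fold change was 0.02, beside 0.00 over all genes. Next to Irx4, Ndufs6, a respiratory complex I subunit, was at 66.3 CPM on average in control and 53.9 CPM in mutant (log2 fold change -0.29, SE 0.09, limma adjusted p = 0.291). The nearest tested genes on the other sides had log2 fold changes of 0.03 (SE 0.06) for Ice1 beyond Irx1, -0.09 (SE 0.07) for Fto beyond Irx3, which holds distant Irx3 enhancers in its introns, and 0.22 (SE 0.08) for Mmp2, a matrix metalloproteinase beyond Irx6. The smallest unadjusted p-values belonged to Sdha (log2 fold change -0.24, SE 0.07, limma adjusted p = 0.243) and to the long noncoding RNA Crnde. Crnde, the 1 tested gene inside a cluster, lies beside Irx5 at chr8:92326033-92356120. It was at 4.79, 4.36, 5.04 and 3.78 CPM in control 1 to 4 and at 3.13, 2.13, 1.79 and 3.81 CPM in mutant 1 to 4 (log2 fold change -0.67, SE 0.20, limma adjusted p = 0.270). Its lowest libraries, mutant 2 and mutant 3, were also the lowest for Irx5.

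The other TALE homeobox genes, which include the Meis and Pbx partners of Hox proteins, had small differences beside those of Irx3, Irx4 and Irx5. Of 12 genes, 0 passed in limma, in either edgeR test or in DESeq2, 1 was higher at an unadjusted p under 0.05 and 0 were lower, and the median log2 fold change was 0.12. Log2 fold changes were 0.20 (SE 0.07) for Pbx3, 0.10 (SE 0.06) for Meis2 and 0.33 (SE 0.21) for Mkx, the last at about 1 CPM. With the GC trend removed they were 0.063 for Pbx3 and 0.026 for Meis2.

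Genes linked to Iroquois factors in the heart, among them ion channels, connexins and natriuretic peptides, had a median log2 fold change below that of all genes, -0.42 beside 0.00. Of 17 listed, 16 were measured, 0 passed in limma, and 8 were lower and 1 higher at an unadjusted p under 0.05, beside 6.62% lower and 5.45% higher of all genes. The likelihood ratio test called 2, both lower, beside 0.554% of all genes, among them Myh7, the slow myosin heavy chain. The lists share genes, so their counts are not independent. Myh7 and Nppb are also ventricular genes below, Myh6 and Nppa atrial genes, and Gja5 a conduction system gene. Myh6 and Myh7, with Myl4, Myl7 and Nkx2-5 of the atrial and conduction lists, are also cardiomyocyte markers below. Tbx20 is both a ventricular gene and a cushion mesenchyme marker, and Tcf21 a marker of both epicardium and second heart field. Gja1, connexin 43, was at 174.3 and 123.9 CPM (log2 fold change -0.49, SE 0.13, limma adjusted p = 0.242). Nppb, a natriuretic peptide, was at 36.4 and 16.5 CPM with overlapping groups (log2 fold change -1.24, SE 0.35, limma adjusted p = 0.258). Kcnd2, the potassium channel gene repressed by Irx5, was named for that role and not by rule, and was at 1.84 ± 0.70 and 1.12 ± 0.33 CPM (log2 fold change -0.51, SE 0.24).

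Among 10 ventricular genes, 7 were lower and 0 higher at an unadjusted p under 0.05, 0 passed in limma, and the median log2 fold change was -0.38. The likelihood ratio test called 4, all lower: the myosin light chains Myl2 and Myl3, Myh7, and Mycn, a proliferation factor of the compact wall. Myl2 was at 2153, 1915, 2393 and 1789 CPM in control 1 to 4 and at 1548, 1297, 1253 and 1482 CPM in mutant 1 to 4, without overlap (log2 fold change -0.56, SE 0.11, limma adjusted p = 0.142). Log2 fold changes were -0.38 (SE 0.08) for Myl3, -0.38 (SE 0.08) for Mycn and -0.39 (SE 0.11) for Myh7, beside the -0.76 of Irx4. Of 10 atrial genes, 3 were lower and 1 higher at an unadjusted p under 0.05, and the likelihood ratio test called Myl4, an atrial light chain (log2 fold change -0.32, SE 0.08). The other atrial genes named by rule had log2 fold changes of 0.31 (Nr2f1, SE 0.09), -0.45 (Myh6, SE 0.14) and -2.09 (Nppa, SE 0.74, and -1.27 in the likelihood ratio test). Nppa was at 5.67 and 8.68 CPM in mutant 2 and mutant 3, the lowest libraries for Irx5 too, and at 61.9 to 157.4 CPM in the other 6. Of 12 conduction system genes 10 were measured, 2 were higher and 2 lower at an unadjusted p under 0.05, and the likelihood ratio test called Nkx2-5, a core cardiac factor (log2 fold change -0.45, SE 0.11, and -0.27 with the GC trend removed). The others named by rule had log2 fold changes of 0.41 (Cacna1g, SE 0.14), -0.50 (Gja5, SE 0.19) and 0.16 (Id2, SE 0.07, and 0.10 with the GC trend removed).

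**Figure D4:**
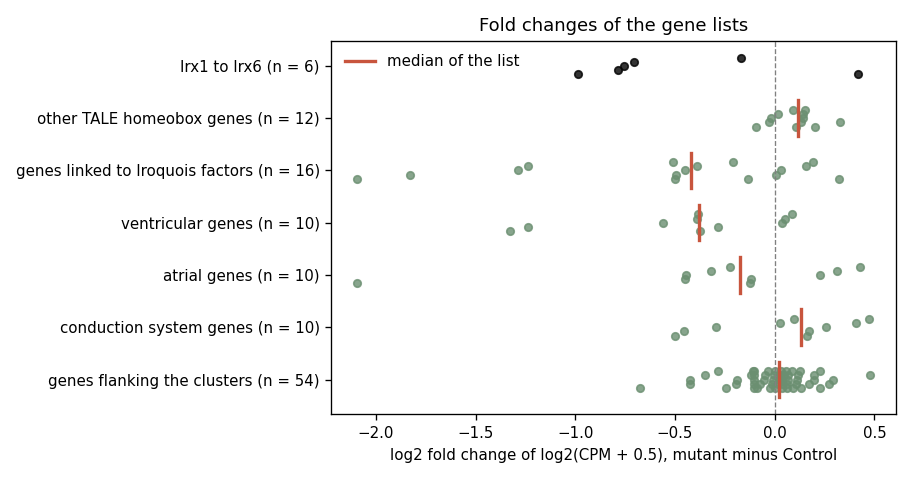
Log2 fold change, mutant minus Control, of every measured gene of each list (points), with the median of the list as a red line and the Iroquois genes as black points. The medians of the ventricular genes (-0.38) and of the genes linked to Iroquois factors (-0.42) lie to the left of zero, with 3 of 10 and 5 of 16 genes above zero. The other TALE genes (median 0.12) have 9 of 12 genes above zero and the flanking genes (median 0.02) 28 of 54.

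Bulk RNA cannot tell fewer cells of a type from less RNA per cell, so marker levels are given beside the Iroquois values. All 12 cardiomyocyte markers were measured and 11 were lower at an unadjusted p under 0.05, of which the likelihood ratio test called 7. Their summed level was 26997 to 31572 CPM in control and 21420 to 25450 CPM in mutant. The mean list level differed by -0.33 log2 units, with p = 0.0286 in a two-sided exact permutation test, the smallest value that 70 relabellings of the libraries allow, and 0.129 after adjustment over 9 lists. Of 8 measured markers of the second heart field and pharyngeal mesoderm, the progenitors that build the OFT, 4 were higher at an unadjusted p under 0.05, and the likelihood ratio test called Isl1. Their sum was 72.9 to 91.2 CPM in control and 102.2 to 129.97 CPM in mutant. The mean list level differed by 0.45 log2 units (exact permutation p = 0.0286, again the smallest value possible, adjusted p = 0.129). Leaving out 1 library moved this difference between 0.33 and 0.51. The list includes Six2, which was at 17.7 CPM in mutant 1, the library with the highest sum. In the 10 markers of endocardium and endothelium, where Irx3 and Irx5 are also known to act, 3 were lower at an unadjusted p under 0.05, with sums of 1019 to 1255 CPM and 1043 to 1137 CPM and a difference of -0.15. The differences were 0.15 for cushion mesenchyme (sums 5170 to 5784 and 4955 to 6752 CPM), 0.13 for smooth muscle (2679 to 3104 and 2789 to 3194 CPM), in which 2 of 7 markers were higher and 1 lower at an unadjusted p under 0.05, and 0.11 for epicardium (361.8 to 482.7 and 354.8 to 611.2 CPM). In the smooth muscle list the likelihood ratio test called Rgs5, a pericyte marker, higher (log2 fold change 0.57, without overlap). The differences were 0.14 for neural crest, glia and neurons (110.7 to 135.7 and 100.1 to 140.7 CPM; 2 of 8 higher at an unadjusted p under 0.05, with Stmn2 called by the likelihood ratio test), 0.13 for pharyngeal endoderm and epithelium and -0.34 for skeletal muscle. In the latter pair the defining markers Epcam, Cdh1, Foxa2, Myod1, Myog and Myf5 are not listed, and sums over the 3 and 2 genes measured were 70.1 to 90.5 and 78.3 to 86.7 CPM, and 6.09 to 10.1 and 5.41 to 7.31 CPM. Adjusted p-values of these 7 lists ran from 0.171 to 0.600. With 9 lists, an adjusted p under 0.05 would need most lists to reach the smallest possible value. The markers were chosen with earlier results of these data known, so the permutation p-values are a description and no separate support.

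Beside other genes of cardiomyocytes, the difference in Irx4 was smaller than on its own. The log2 level of Irx4 minus the mean of the cardiomyocyte markers was -4.77, -4.75, -4.84 and -5.01 in control 1 to 4 and -4.97, -5.49, -5.33 and -5.31 in mutant 1 to 4. Mutant 1 lay within the control range and the other 3 mutant libraries below it, and the means differed by -0.43. Taken beside the ventricular genes, the Irx4 level differed by -0.32. The groups did not overlap, but the gap was small, -2.92 in control 4 against -2.96 in mutant 1. Beside the same ventricular genes Irx3 differed by -0.27, with mutant 1 and mutant 3 within the control range, and Irx5 by -0.55, also with overlap. For Irx3 the level beside cardiomyocyte markers was -6.19, -6.54, -6.45 and -6.51 in control 1 to 4 and -6.40, -7.29, -6.78 and -6.73 in mutant 1 to 4. Only mutant 1 lay within the control range, and the means differed by -0.38. For Irx5 the means differed by -0.66, with mutant 1 and mutant 4 above control 4. Beside the markers of endocardium and endothelium, Irx4 differed by -0.60 and Irx3 by -0.55, both without overlap. Irx5 differed by -0.83 on that scale, with overlap. The ventricular genes include Cited1, the gene most like Irx5, and the endothelial markers include Plvap, among the genes most like Irx4. These references thus hold genes that varied with the member set beside them. Irx1 and Irx2 overlapped beside each of these lists, mutant 1 being the highest library. How much of the difference in Irx3, Irx4 or Irx5 goes with the share of cardiomyocytes was not tested beyond these values.

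**Figure D5:**
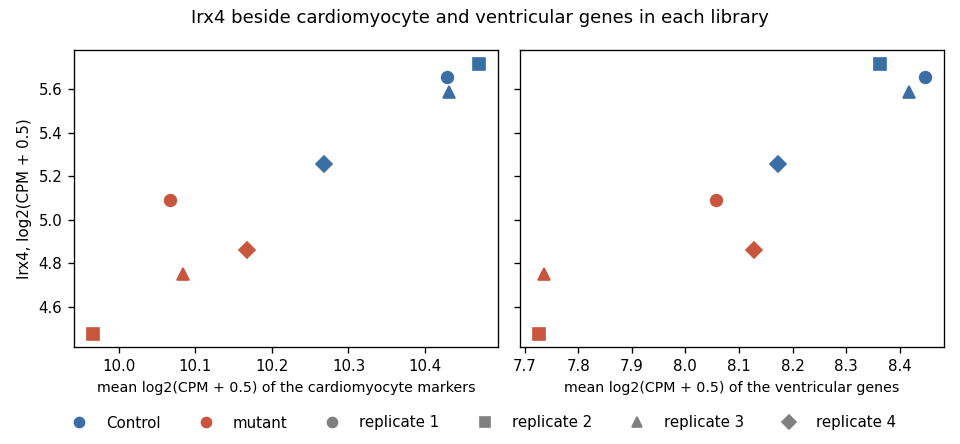
Irx4 as log2(CPM + 0.5) against the mean log2(CPM + 0.5) of the cardiomyocyte markers (left) and of the ventricular genes (right) in each library, Control in blue and mutant in red, with 1 symbol per replicate number. Mutant libraries are lower on both axes, with mutant replicate 2 lowest for Irx4 and control replicate 4 the control nearest to the mutants.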

How the data were processed

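RNA-seq was analysed in 4 Control and 4 Mib1V943F/+ Gata6STOP/+ OFT libraries, grouped by the genotype label. The authors trimmed single-end reads with cutadapt, quantified them with RSEM on GRCm38 with Ensembl genes, retained those reaching 1 CPM in 3 samples or more and scaled them by TMM in edgeR; the deposited values are these CPM. Dividing by the value of 1 read gave whole reads (within 0.001) for 100% of the values in each column; the value of 1 read was evident from the smallest value in 3 columns and was taken from the smallest gaps between values in the other 5. The deposited table has 0 unused columns, and 14600 of its genes matched GENCODE M21.

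Log2(CPM + 0.5) was tested with limma 3.58.1 (trend, Benjamini-Hochberg, threshold 0.05) in R 4.3.3. The alternatives were edgeR 4.0.16 and DESeq2 1.42.0 on the recovered reads, no TMM factors, pseudocounts of 0.1 and 1, a mean of at least 5 CPM, removal of the GC trend, a replicate block, and each library left out. The fits were tested on simulated data. Replicate numbers did not pair libraries (r of deviations from -0.19 to 0.03).

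The members, lists, markers and tests were chosen with earlier results of these data known. Named genes are every Iroquois gene, the 4 smallest limma p-values of each list, the nearest tested flanking gene on each side of a cluster with the 2 smallest p-values, and the 5 (Irx4) or 3 genes most alike; some of these are not reported here.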

Additional observations from a re-analysis of the deposited data

Results flagged for a closer look

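A value was picked out when, within a group of 4 libraries, its gap to the nearest other value, as a share of the range of the group, exceeded the 95% Dixon limit for 4 values. Of 62 groups of values examined, for the Iroquois genes and the other genes named from the lists, 8 held such a value, and chance alone gives about 5% of groups. Irx1 stood apart in mutant 1 at 38.5 CPM, the other mutant libraries being between 1.84 and 3.64 CPM. Irx5 stood apart in control 4 at 7.17 CPM, the other controls being between 12.3 and 12.6 CPM. In the same library, Meis2 was high at 207.8 CPM, Mkx high at 1.19 CPM and Myl4 low at 1216 CPM. In mutant 2, Nkx2-5 was low at 65.2 CPM and Fto low at 105.4 CPM. In mutant 3, Gja1 was low at 93.9 CPM.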

How the results depend on the processing

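The log2 fold changes of Irx3, Irx4 and Irx5 kept their direction under every alternative run, with lowest and highest values over the left-out libraries of -0.84 and -0.51 for Irx3, -0.86 and -0.65 for Irx4 and -1.18 and -0.79 for Irx5. For Irx1 they were -0.48 and 0.88, and for Irx2 -0.89 and 0.35. Irx1 was at 1.46, 1.39 and 1.46 in the likelihood ratio, quasi-likelihood and DESeq2 fits, beside 0.41 in limma. Irx2 was positive in the fits to recovered reads, with 0.55 in the likelihood ratio test, 0.51 in the quasi-likelihood test and 0.55 in DESeq2, and the cause was not tested. With limma, 0 genes passed whichever library was left out. The likelihood ratio test called 107 genes, DESeq2 192, and with 1 library left out, an alternative chosen after seeing the data, the likelihood ratio test called 24 to 209. Counts moved from 0 in limma to 2 in both tools for genes linked to Iroquois factors, to 4 for ventricular genes, to 1 for atrial genes, to 1 for conduction system genes and, in DESeq2, to 1 for flanking genes. With the mean transcript length, Irx1 came to 3.48 and Irx2 to 6.41 CPM per kb. The epicardium difference ran from -0.043 (without mutant 2) to 0.22. The replicate block left 0 genes past the threshold, changed no other call, and gave Irx4 -0.76. With the GC trend removed the log2 fold changes were -0.63 for Irx4, -0.57 for Irx3 and -0.82 for Irx5, with or without the block. Reads were few for Irx1, down to 24 in control 2.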

Other observations

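The other genes that stood highest in mutant 1 were low in every library, and were named after their values were seen. Edn3, endothelin 3, was at 6.07 CPM there and at no more than 1.95 CPM elsewhere. Rspo2, an enhancer of WNT signalling, was at 5.32 CPM against at most 1.88 CPM, and Cldn11, a tight junction protein, at 7.89 CPM against at most 3.08 CPM. Isl1, the defining factor of the second heart field, was at 29.2 CPM on average in control, and at 46.2 CPM in mutant, without overlap (log2 fold change 0.64). It did not pass limma over all genes (adjusted p = 0.142), but the likelihood ratio test of edgeR called it (adjusted p = 0.00142).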
